A study of Mus musculus with 27 samples.

Results

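Heat shock proteins and their co-chaperones keep proteins folded, take apart aggregates and pass damaged proteins on to degradation. HSP70 proteins bind unfolded stretches in cycles that J-domain proteins of the DNAJA and DNAJB classes start and that nucleotide exchange factors (HSP110 and BAG proteins) end, HSP90 finishes the folding of client proteins, and small heat shock proteins hold unfolded proteins until they are refolded. In skeletal muscle the small heat shock proteins and the pair *Bag3* and *Hspb8* are known for their place at the Z-disc, where the sarcomere is under constant mechanical load. The members were the non-control probes of the array whose gene name starts with Hspa, Hspb, Hsp90, Hspd1, Hspe1, Hsph1, Dnaja, Dnajb or Bag1 to Bag6. They were 72 probes of 50 genes, out of 55681 probes and 35527 gene names.

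The RNA came from 27 single myofibers of the tibialis anterior muscle of male mice, labelled as 3 months old, each myofiber on its own array. There were 8 myofibers from 2 Wt mice, 12 from 3 *Smn1*ΔSkm mice and 7 from 2 *Smn1*ΔSkm mice that had received AFS cells, which are amniotic fluid stem cells injected into the tail vein a month before the muscle was taken. In *Smn1*ΔSkm mice (labelled Smn1deltaSKM) both *Smn* alleles carry a floxed exon that Cre removes under the human skeletal actin promoter, so the deletion is limited to skeletal muscle, and the AFS-treated mice carry the same alleles. The methods describe the Wt fibers as those of GFP-carrying C57BL/6 mice, whereas elsewhere in the study the controls are called littermates, so the strain of the Wt mice is not settled here. The methods also place the injection of AFS cells at the age the labels give for the muscle, so treated mice may have been older than labelled, and age and treatment cannot be told apart. Every muscle was digested with collagenase before the myofibers were picked.

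Values are the log2 signal of a probe minus the 75th percentile of its array, so 0 is the level of a fairly bright probe. Levels of different probes are not compared as amounts of RNA, and where a probe is called the brightest of its gene, mean signal served only to choose 1 probe per gene. Each mouse entered limma as the mean of its myofibers, which are not independent of one another. Of the 72 member probes, 61 from 42 genes had values on at least 75% of the arrays and were tested among 22154 probes. The other 11 probes left *Bag4*, *Dnajb12*, *Dnajb13*, *Dnajb3*, *Dnajb7*, *Hspa12a*, *Hspa13* and *Hspa4l* without a tested probe, and for none of these could a bound on a fold be given. No probe was named *Hspa1b* or *Bag6*, and the *Hspa1a* probe lists transcripts of both *Hspa1a* and *Hspa1b*, so this pair cannot be told apart. The rule also took in *Hspbp1*, *Hspbap1* and *Hspb11*, whose products are not small heat shock proteins of the usual kind in spite of their names.

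The series has a strong batch structure. The 8 Wt arrays shared 1 slide, which held no other group and had its own scan day, so slide, scan day and genotype cannot be told apart in any comparison with Wt. *Smn1*ΔSkm myofibers 1 to 3, all from mouse 1, differed in slide and scan day from *Smn1*ΔSkm myofibers 4 to 12. The counts of calls and the values of *Hspa9*, *Bag3*, *Dnaja4* and *Dnajb4* are given without these myofibers too. For other probes in which mouse 1 stood apart, among them *Hspa14*, *Hspb7*, *Hspb8* and *Dnajb5*, such values are not given. The array of Wt myofiber 8 also stood apart, with values for 34001 probes beside 23864 to 27318 on the other Wt arrays. An array gave values for 23170 to 37580 probes. Of the 10 myofiber marker genes 9 were tested, and their summed linear signal was 2046 to 3479 times the array's 75th percentile in Wt, 1446 to 2497 in *Smn1*ΔSkm and 2129 to 2836 in AFS-treated myofibers. The satellite cell markers *Myf5* and *Calcr* and the fibroblast marker *Pdgfra* had no value on any array. Other markers of these cells did, *Cdh15* on 8 Wt, 11 *Smn1*ΔSkm and 7 AFS-treated arrays, *Col1a2* on all arrays, *Col3a1* on 6, 11 and 6 arrays and *Dcn* on 1, 12 and 5, while *Pax7* had a value on 1 array in each group, and their part in the results was not tested. Of a pair of *Smn1* probes one was lower in *Smn1*ΔSkm than in Wt by a log2 difference of -1.68 (limma, adjusted p = 0.0200), and the other differed by 0.19 (limma, adjusted p = 0.716).

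The first question was which chaperones differed between *Smn1*ΔSkm and Wt myofibers. Probes of 7 member genes were lower in *Smn1*ΔSkm: *Hsp90ab1*, one probe each of *Hspa8*, *Hspa4* and *Dnaja2*, and the single probes of *Dnaja3*, *Hspb2* and *Bag2*. The J-domain genes *Dnaja4* (1 of 2 probes) and *Dnajb4* were higher. In all, limma called 9 of the 61 member probes at an adjusted p under 0.05, 7 lower and 2 higher. This is 14.8% of the members beside 21.5% of all 22154 probes. By direction it is 11.5% lower beside 14.1% of all probes and 3.28% higher beside 7.34%. With the brightest probe of each gene 5 of 42 member genes were called (11.9%), beside 22% of all genes. The mice of the groups did not overlap for 30 member probes (49.2%), beside 55.4% of all probes. The median difference over the member probes was -0.07 and that over all probes was -0.14. The sign of the member median turned with the scaling: it was 0.09 with quantile normalization, with 3 probes called higher and 4 lower, and 0.14 with arrays centred on the probes detected everywhere, with 3 higher and 3 lower, a setting that also moved the median over all probes to 0.08. Without Wt myofiber 8 limma called 15 member probes, 12 lower and 3 higher, the 9 among them. The call of each of the 9 probes was lost without either Wt mouse, when limma called 0 probes of the whole array. With the slide as a random block 5 member probes were called, all lower, and neither *Dnaja4* nor *Dnajb4* was among them. Without *Smn1*ΔSkm mouse 1 there were 23 calls, without mouse 2 there were 4 and without mouse 3 there were 5.

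**Figure D1:**
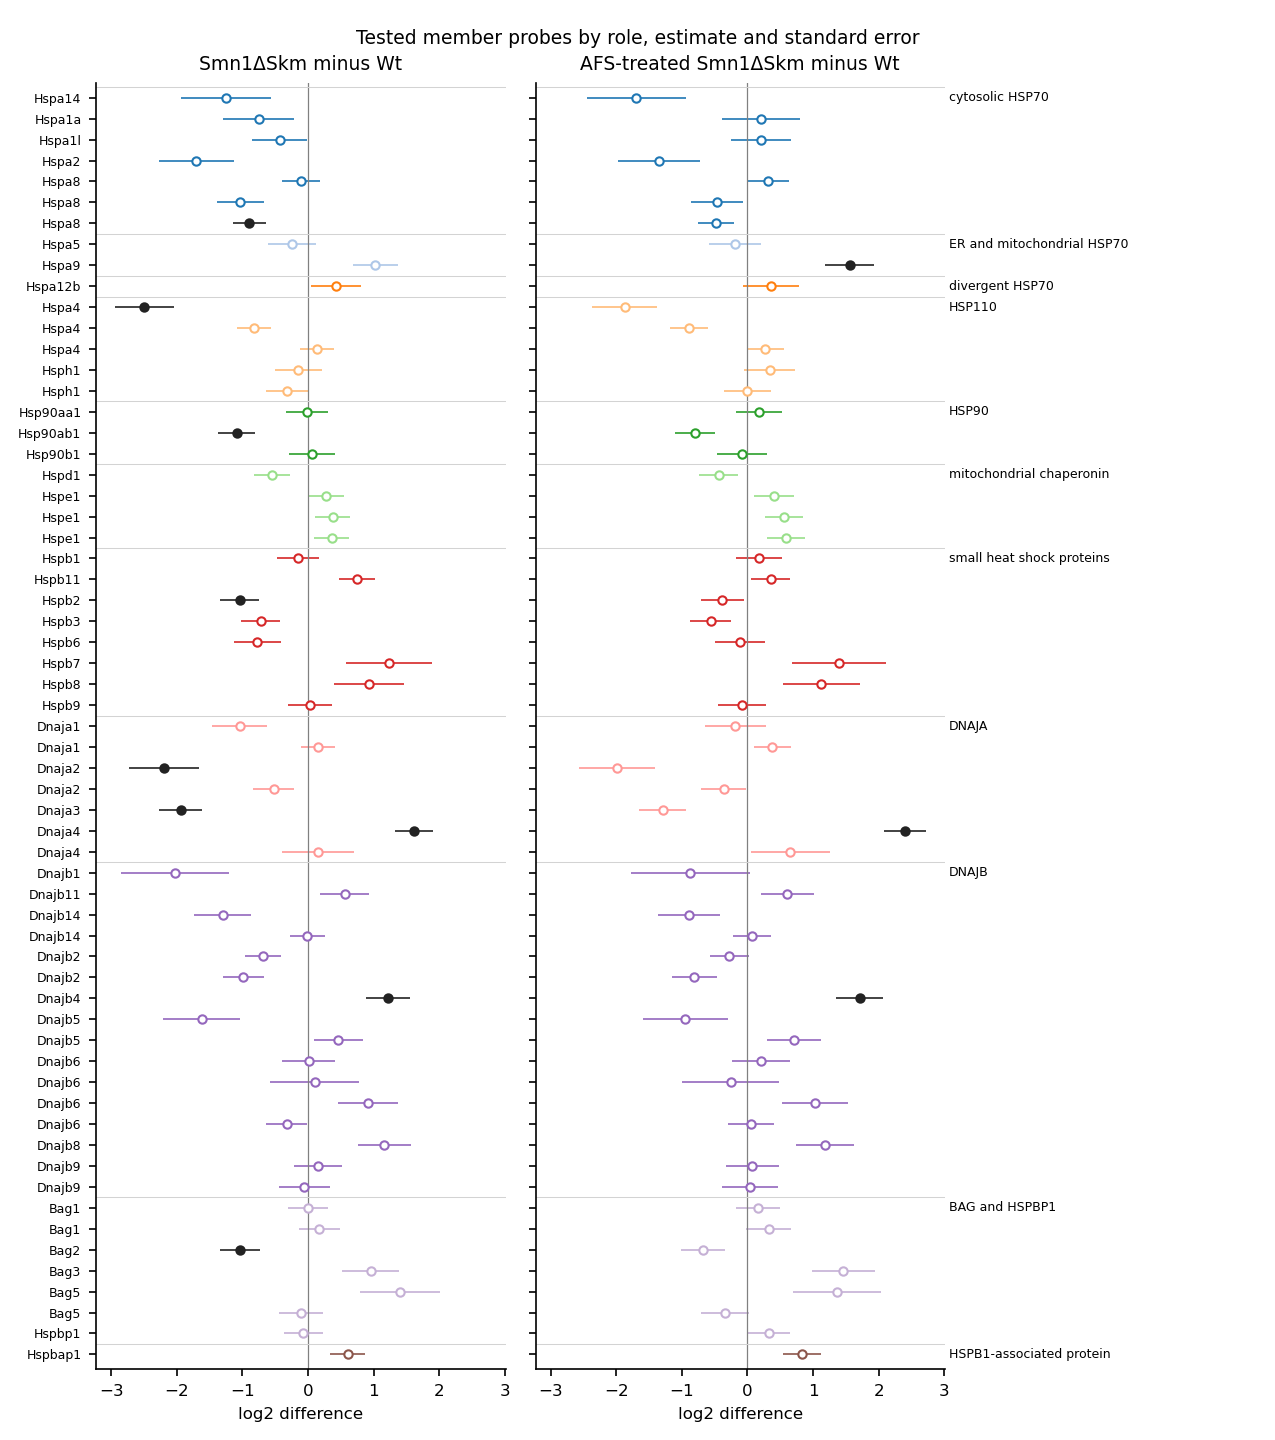
Log2 difference from Wt (x axis) of each of the 61 tested member probes (rows, named by gene and grouped by role) for untreated and AFS-treated *Smn1*ΔSkm myofibers. Points are limma estimates over mouse means and bars are standard errors. Filled black points were called at an adjusted p under 0.05, 9 on the left and 3 on the right.

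Among the cytosolic HSP70 genes all 7 tested probes of 5 genes had a negative difference, from -1.70 to -0.11, and 1 passed the test. Over all probes 44.4% had a positive difference and 21.5% were called. *Hspa8* encodes the constitutive HSP70 of the cytosol, and 3 of its probes were tested. The called probe lay at 6.29 and 6.37 in the 2 Wt mice, at 5.29, 5.55 and 5.46 in untreated *Smn1*ΔSkm mice, while the AFS-treated mice had 5.94 and 5.75. Every *Smn1*ΔSkm mouse was thus below every other mouse, by a log2 difference of -0.89 from Wt (standard error 0.255, limma, adjusted p = 0.0412). A further probe differed by a similar -1.04 and did not pass, and the probe with the highest signal differed by -0.11. With quantile normalization the call was lost at a difference of -0.55 (limma, adjusted p = 0.189).

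*Hspa1a*, the heat-inducible HSP70, did not pass the test. Its mouse means were 2.47 and 2.93 in Wt, 0.85, 2.68 and 2.32 in *Smn1*ΔSkm and 3.36 and 2.46 in the AFS-treated mice, so that the groups overlapped. The difference between *Smn1*ΔSkm and Wt was -0.75 (standard error 0.543, limma, adjusted p = 0.335). *Hspa2* (-1.70) and *Hspa14* (-1.25), other HSP70 genes, were not called either, and *Hspa14* had 1 *Smn1*ΔSkm mouse at 0.34 and the other pair at -1.98 and -2.20.

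Neither organelle HSP70 gene was called in untreated mice. *Hspa5*, the HSP70 of the endoplasmic reticulum, had overlapping groups and a difference of -0.24 (limma, adjusted p = 0.649). *Hspa9*, which encodes the HSP70 that pulls proteins into mitochondria, lay at 3.13 and 3.11 in Wt, 4.77, 3.86 and 3.80 in *Smn1*ΔSkm and 4.69 and 4.67 in the AFS-treated mice. All 5 *Smn1*ΔSkm mice, treated or not, were above both Wt mice. The difference was 1.02 in untreated mice (limma, adjusted p = 0.0646), which did not pass, and 1.56 in AFS-treated mice (standard error 0.377, limma, adjusted p = 0.0466), which did. Without *Smn1*ΔSkm myofibers 1 to 3 the former was 0.59.

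*Hspa4*, an HSP110 protein that exchanges the nucleotide of HSP70, had the largest fall of any member, in the only one of its 3 probes to pass the test. That probe lay at 3.32 and 2.51 in Wt, at -0.42, 0.96 and 0.72 in *Smn1*ΔSkm and at 0.92 and 1.17 in the AFS-treated mice. The highest *Smn1*ΔSkm myofiber, at 1.30, was below the lowest Wt myofiber, at 1.91. *Smn1*ΔSkm thus differed by -2.50 (standard error 0.450, limma, adjusted p = 0.0127), whereas the other probes differed by -0.82, which just missed the threshold (limma, adjusted p = 0.0568), and by 0.13. The files place the 3 probes on the minus strand of chromosome 11 (mm9), the called one at chr11:53073347-53073406, the one at 0.13 at chr11:53073594-53073653 and the one at -0.82 at chr11:53075085-53075144. Transcript annotation of that build was not used here, so whether a probe lies in coding sequence or in a UTR is not stated. The first 30 bases of each are shown because these probes, which stand for 1 gene, gave different values, in the order in which they were just named.
Hspa4 A_51_P200477: aactctaggtcacattcttacactaagaaa
Hspa4 A_55_P2061025: tatgcaactgactgtccttaatgaagaact
Hspa4 A_55_P2054157: caagaagcttcctgagatggacattgattg
*Hsph1*, the heat-inducible HSP110, differed by -0.15 and -0.32 in its 2 probes, with overlapping groups.

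Of the HSP90 genes 1 of 3 was called, beside 21.5% of all probes. *Hsp90ab1*, the constitutive cytosolic HSP90, lay at 6.17 and 6.34 in Wt, 4.94, 5.25 and 5.31 in *Smn1*ΔSkm and 5.24 and 5.66 in the AFS-treated mice. The lowest Wt myofiber, at 5.89, was above the highest *Smn1*ΔSkm myofiber, at 5.61. The difference was -1.09 (standard error 0.278, limma, adjusted p = 0.0300), and with quantile normalization it was -0.75 and not called (limma, adjusted p = 0.153). *Hsp90aa1*, the heat-inducible cytosolic form, differed by -0.02 and *Hsp90b1*, the form of the endoplasmic reticulum, by 0.06, each with overlapping groups. That *Hsp90ab1* moved differently from the other forms was not tested.

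**Figure D2:**
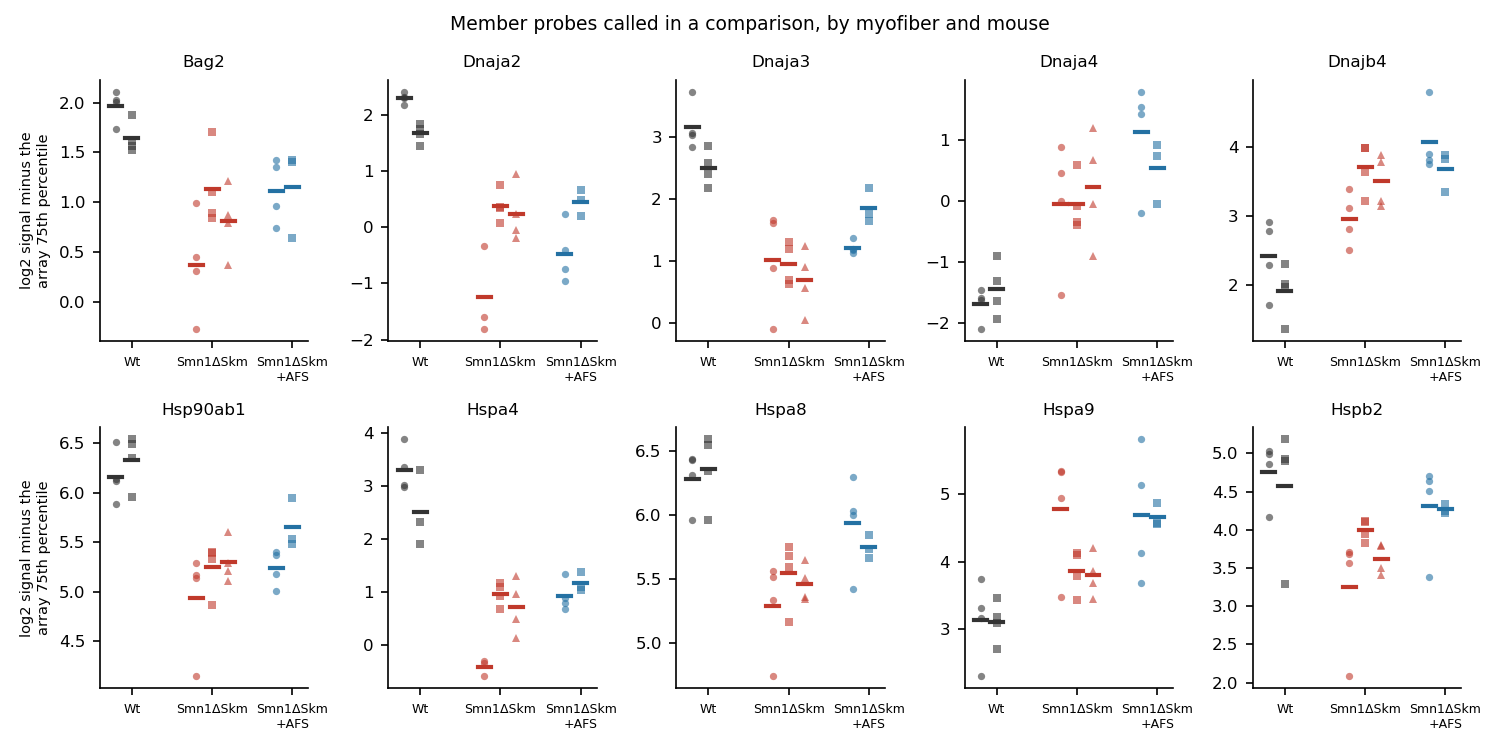
Log2 signal minus the array's 75th percentile (y axis) in each myofiber (points) of Wt, untreated and AFS-treated *Smn1*ΔSkm mice, for the 10 member probes called in a comparison with Wt. Symbols mark the mouse within a group and bars the mean of each mouse. *Dnaja4*, *Dnajb4* and *Hspa9* have higher mouse means in both *Smn1*ΔSkm groups than in Wt, and the other 7 have lower ones.

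The chaperonin of the mitochondrial matrix is a barrel made of *Hspd1* closed by a lid made of *Hspe1*, and these genes start from 1 shared stretch of DNA on opposite strands. *Hspd1* lay at 3.24 and 3.22 in Wt and at 2.84, 2.77 and 2.43 in *Smn1*ΔSkm, so that all *Smn1*ΔSkm mice were lower, but the difference of -0.55 did not pass (limma, adjusted p = 0.166). The brightest *Hspe1* probe lay at 4.80 and 4.37 in Wt and at 4.90, 5.05 and 4.90 in *Smn1*ΔSkm, a difference of 0.36 that did not pass either (limma, adjusted p = 0.343). The 3 *Hspe1* probes gave 0.28, 0.38 and 0.36. The last pair begin 3 bases apart on the genome (chr1:55148023-55148082 and chr1:55148026-55148085, mm9, plus strand) and differed from each other by 0.01. Their first 30 bases are shown with the longest run they share in capitals, as a repeated measurement of 1 place.
Hspe1 A_55_P2089358: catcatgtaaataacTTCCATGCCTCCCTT
Hspe1 A_66_P124952: catgtaaataatTTCCATGCCTCCCTTtta

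The shared promoter of *Hspd1* and *Hspe1* carries the heat shock element, the DNA site of heat shock factors, which was searched for in the RefSeq promoter windows (GRCm38.p6, 250 bases before to 50 bases after each start). The element was written as 3 alternating copies of NGAAN, that is NGAANNTTCNNGAAN or NTTCNNGAANNTTCN, which together cover both strands. It was found in the windows of *Hspd1*, *Hspe1*, *Hsph1* and *Dnajb6*, 4 of the 43 member genes with a window (9.3%), and in 179 of 27025 genes in all (0.662%). Pairs of adjoining copies, which every longer element also holds, were found as NGAANNTTCN in 12 member genes (27.9%, beside 9.04% of all genes) and as NTTCNNGAAN in 5 (11.6%, beside 9.6%). The stretch between *Hspd1* and *Hspe1* holds 4 copies in a row and is given on the strand of each gene, at chr1:55088039-55088096, followed by that of *Dnajb6* on the plus strand at chr5:29735832-29735884, with the copies in capitals from the first to the last.
Hspe1: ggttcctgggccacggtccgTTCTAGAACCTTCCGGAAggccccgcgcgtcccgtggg
Hspd1: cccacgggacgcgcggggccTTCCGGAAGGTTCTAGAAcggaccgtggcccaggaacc
Dnajb6: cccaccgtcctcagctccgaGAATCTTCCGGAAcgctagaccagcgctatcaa
None of the genes with an element of 3 copies was called in a comparison. However, *Hspa8*, *Hspa9*, *Hspa13*, *Hspb2*, *Hsp90aa1*, *Hsp90ab1* and *Bag4* had no window and were not searched. Of these, *Hspa8*, *Hspa9*, *Hspb2* and *Hsp90ab1* were called in a comparison. A match of letters is a description of the window and says nothing of whether a factor binds there.

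The small heat shock proteins had differences of either sign. Of the 8 tested probes, *Hspb11* among them, 4 had a negative and 4 a positive difference, beside 44.4% of all probes positive. Only 1, a negative one, passed the test, so a split of the family is not shown. The positive ones included *Hspb9* at 0.03 and the tested *Hspb11* probe at 0.74. The other *Hspb11* probe, not tested, had means of -0.26 in Wt and -1.44 in *Smn1*ΔSkm. *Hspb2*, a muscle form that pairs with *Hspb3*, lay at 4.76 and 4.58 in Wt, 3.26, 4.00 and 3.62 in *Smn1*ΔSkm and 4.31 and 4.27 in the AFS-treated mice. Each *Smn1*ΔSkm mouse was below each mouse of the other groups, and *Smn1*ΔSkm differed from Wt by -1.04 (standard error 0.297, limma, adjusted p = 0.0409). This call was lost with quantile normalization (-0.74, limma, adjusted p = 0.156) and held in 9 of 22 alternatives. *Hspb3* (-0.72, limma, adjusted p = 0.105) and *Hspb6* (-0.77, limma, adjusted p = 0.142), both abundant in muscle, were also lower in all 3 *Smn1*ΔSkm mice without passing the test. *Hspb1*, which binds actin filaments, had overlapping groups and a difference of -0.16.

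On the other side were *Hspb7* and *Hspb8*. *Hspb7*, a muscle form that binds the Z-disc protein filamin C, lay at 3.43 and 2.44 in Wt and at 3.13, 4.53 and 4.83 in *Smn1*ΔSkm, where mouse 1 fell between the Wt mice. Its difference of 1.23 did not pass (limma, adjusted p = 0.199), and without *Smn1*ΔSkm mouse 1 it was 1.75 and passed (limma, adjusted p = 0.0372). *Hspb8*, the partner of *Bag3* in handing damaged filamin to autophagy, lay at 5.19 and 4.67 in Wt and at 5.11, 6.32 and 6.15 in *Smn1*ΔSkm, and its 0.93 did not pass (limma, adjusted p = 0.229). *Bag3* itself lay at 3.47 and 2.81 in Wt, at 3.34, 4.76 and 4.18 in *Smn1*ΔSkm and at 4.78 and 4.42 in the AFS-treated mice. The *Bag3* difference was 0.95 in untreated mice (limma, adjusted p = 0.140) and 1.46 in AFS-treated mice (limma, adjusted p = 0.0898). It passed for untreated mice without *Smn1*ΔSkm mouse 1, at 1.33 (limma, adjusted p = 0.0140), and was 0.85 and not called without only myofibers 1 to 3 of that mouse (limma, adjusted p = 0.209). *Synpo2*, *Flnc* and *Sqstm1*, the partners of the pair in that pathway, had 0 of 3 genes called.

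J-domain proteins of class A were called in 3 of 7 probes, 2 lower and 1 higher, beside 14.1% of all probes lower and 7.34% higher. *Dnaja3*, the mitochondrial J-domain partner of *Hspa9*, lay at 3.16 and 2.50 in Wt, 1.02, 0.96 and 0.69 in *Smn1*ΔSkm and 1.22 and 1.86 in the AFS-treated mice. The lowest Wt myofiber, at 2.18, was above the highest *Smn1*ΔSkm myofiber, at 1.66. Its fall of -1.94 (standard error 0.327, limma, adjusted p = 0.0110) had the lowest adjusted p of all members. *Dnaja2*, a cytosolic partner of HSP70, lay at 2.30 and 1.67 in Wt and at -1.24, 0.38 and 0.23 in *Smn1*ΔSkm by its called probe, a difference of -2.19 (limma, adjusted p = 0.0256). Its brighter probe differed by -0.52 and was not called. *Dnaja1*, a further cytosolic partner of HSP70, differed by 0.16 in its brighter probe, with overlapping groups. Its less bright probe differed by -1.04 and was not called (limma, adjusted p = 0.105), although the mice of the groups did not overlap.

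*Dnaja4*, a further cytosolic class A protein, rose by its dimmer probe. This lay at -1.69 and -1.44 in Wt, -0.05, -0.05 and 0.23 in *Smn1*ΔSkm and 1.14 and 0.54 in the AFS-treated mice. The groups of mice did not overlap, with Wt lowest and AFS-treated mice highest. It exceeded Wt by 1.61 in untreated mice (standard error 0.293, limma, adjusted p = 0.0128) and 2.41 in AFS-treated mice (standard error 0.320, limma, adjusted p = 0.0151). The brighter probe, at chr9:54564061-54564120 (mm9, plus strand), lay 10159 bases downstream of the called one, at chr9:54553902-54553961, and differed by 0.15, with mouse 1 of *Smn1*ΔSkm at 1.25 and the others at 3.06 and 3.25. Without *Smn1*ΔSkm myofibers 1 to 3 the called probe differed by 1.11 and lost its call in untreated mice (limma, adjusted p = 0.121). The first 30 bases of both probes are shown because these probes, which stand for 1 gene, gave different values.
Dnaja4 A_51_P308549: ttcagatcctaagaaaagagacatctatga
Dnaja4 A_55_P2085546: gttgcttaactgtcccacctgtacactttc

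Class B J-domain proteins were called in 1 of 16 probes, beside 21.5% of all probes. *Dnajb4*, a cytosolic relative of the heat-inducible *Dnajb1*, lay at 2.43 and 1.92 in Wt, 2.96, 3.71 and 3.51 in *Smn1*ΔSkm and 4.07 and 3.69 in the AFS-treated mice. All *Smn1*ΔSkm mice, treated or not, were above both Wt mice. The difference was 1.22 in untreated mice (standard error 0.331, limma, adjusted p = 0.0355) and 1.71 in AFS-treated mice (standard error 0.362, limma, adjusted p = 0.0354). Without *Smn1*ΔSkm myofibers 1 to 3 the former was 1.07 and lost its call (limma, adjusted p = 0.0685). *Dnaja4* and *Dnajb4* were the only member genes called higher in both comparisons with Wt. Their RefSeq windows hold no element of 3 copies but do hold pairs, shown in capitals with 15 bases on each side, beside the pair before *Hspa1a*. These lie at chr9:54699454-54699491 and chr9:54699492-54699529 (plus strand), chr3:152193837-152193874 (minus strand) and chr17:34972238-34972275 (minus strand) in GRCm38.p6.
Dnaja4, first pair: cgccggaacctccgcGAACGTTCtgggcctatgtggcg
Dnaja4, next pair: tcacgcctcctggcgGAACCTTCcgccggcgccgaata
Dnajb4: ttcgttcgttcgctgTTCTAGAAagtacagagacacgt
Hspa1a: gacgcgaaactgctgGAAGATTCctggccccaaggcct
Both *Dnaja4* and *Dnajb4* have another RefSeq start, and its window holds no pair. Windows of *Bag3*, *Dnaja1*, *Hspb1*, *Hspb3*, *Hspb6* and *Hspb8* hold pairs as well, and neither these genes nor *Hspa1a* were called in a comparison.

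*Dnajb1*, the major heat-inducible J-domain protein, lay at 3.84 and 4.22 in Wt, 0.98, 1.47 and 3.58 in *Smn1*ΔSkm and 2.09 and 4.24 in the AFS-treated mice. Its difference of -2.02 was large but the *Smn1*ΔSkm mice differed by more than 2 log2 units among themselves, and it did not pass (limma, adjusted p = 0.106). *Dnajb5* had 3.35 and 4.00 in Wt and 0.72, 2.70 and 2.74 in *Smn1*ΔSkm, a difference of -1.62 (limma, adjusted p = 0.0805) in its brighter probe and 0.46 in the other. *Dnajb2*, which targets clients to the proteasome, was lower in all *Smn1*ΔSkm mice by both probes, at -0.99 (limma, adjusted p = 0.0534) and -0.68, without passing. *Dnajb6*, a suppressor of aggregation whose human form is mutated in a limb-girdle muscular dystrophy, had 4 probes between -0.33 and 0.92, and its brightest did not pass (limma, adjusted p = 0.470).

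Among BAG proteins *Bag2*, a nucleotide exchange factor that also holds back the ubiquitin ligase of HSP70 clients, was the single call. It was 1 of 7 tested probes of BAG proteins and *Hspbp1*, beside 21.5% of all probes called. It lay at 1.97 and 1.65 in Wt, 0.37, 1.13 and 0.81 in *Smn1*ΔSkm and 1.12 and 1.15 in the AFS-treated mice. The 2 Wt mice were above all others, and the difference of untreated mice was -1.04 (standard error 0.307, limma, adjusted p = 0.0451). The call was lost with quantile normalization (-0.90, limma, adjusted p = 0.0830) and held in 10 of 22 alternatives. *Bag1*, with a pair of overlapping probes, differed by 0.00 and 0.17. *Bag5* had 1.39 by one probe and -0.11 by the other.

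Probes of the same gene often gave different values. Of the 42 tested genes 14 had several tested probes. The 3 pairs of probes that overlap on the genome differed from each other by 0.01 to 0.34, with a median of 0.17. The 22 pairs that do not overlap, from 13 genes, differed by 0.09 to 2.63, with a median of 0.92. These are descriptions of the difference between *Smn1*ΔSkm and Wt, with no test between probes, and many pairs share a probe.

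**Figure D3:**
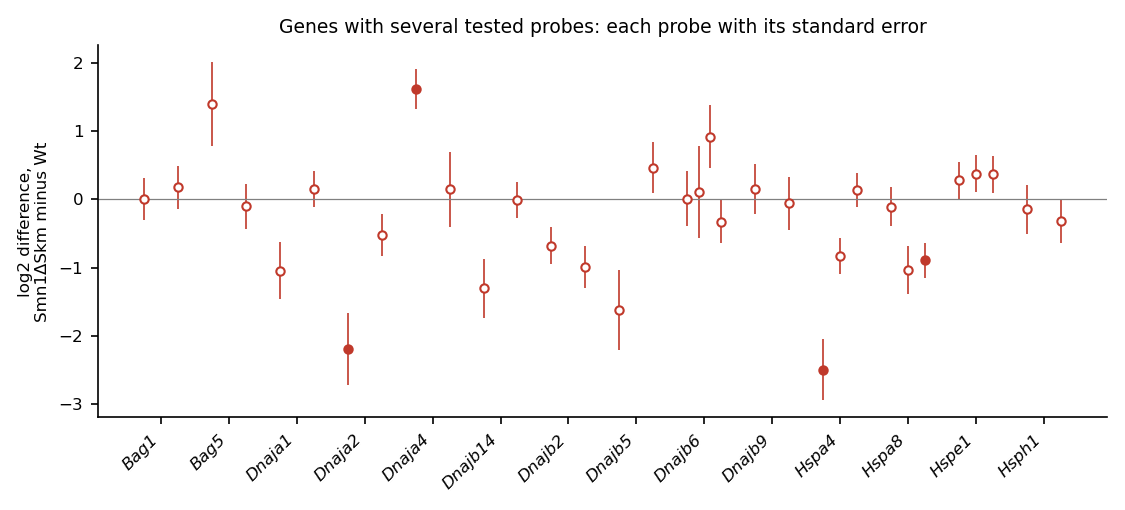
Log2 difference between *Smn1*ΔSkm and Wt (y axis) of each tested probe of the 14 member genes with more than 1 tested probe (x axis). Points are limma estimates over mouse means, bars are standard errors and filled points were called. *Hspa4* spans -2.50 to 0.13 over its probes, while the 3 *Hspe1* probes lie between 0.28 and 0.38.

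The second question was whether chaperones differed between AFS-treated and untreated *Smn1*ΔSkm myofibers. They did not by the test: limma called 0 of 61 member probes and 0 of all 22154 probes (0%), and the smallest adjusted p was 0.9999. Without adjustment 1 member probe (1.64%), *Dnaja4*, had a p under 0.05, beside 713 of all probes (3.22%). With myofibers as replicates limma called 0 member probes and 26 of all. The direction was nonetheless uneven, as 51 of 61 member probes were higher in AFS-treated mice (83.6%, beside 57.7% of all probes), with a median difference of 0.22 beside 0.06 over all probes. In the same comparison 13 of 14 immediate early genes (median 0.72) and 8 of 9 myofiber markers (median 0.34) had a positive difference with 0 called, and their part in the direction of the members was not tested. The mice of the groups did not overlap for 11 member probes (18%), beside 16.5% of all probes. The member median was 0.33 among arrays of scan day 2, beside 0.07 over all probes. On scan day 1, when 3 untreated and 2 AFS-treated arrays came from 1 mouse each, it was 0.30, beside 0.20 over all probes. On that day 39 of 61 member probes were higher in the AFS-treated mouse, and the share over all probes was not counted. The member median was 0.44 with the slide as a fixed block, beside 0.11 over all probes. It was smaller with quantile normalization (0.12), with normexp (0.08) and with arrays centred on the probes detected everywhere (0.13). With the authors' value table it was 0.09. Over all probes these settings gave 0.01, 0.0003, -0.03 and 0.01.

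None of the following differences passed the test. The AFS-treated mice differed from untreated mice by 1.16 for *Dnajb1* (standard error 0.821), by 0.96 for *Hspa1a* (standard error 0.543), by 0.86 for the less bright probe of *Dnaja1* (standard error 0.421) and by 0.67 for the brighter probe of *Dnajb5* (standard error 0.591). That *Dnaja1* probe had values on only 3 of the 7 AFS-treated arrays, and the AFS-treated mice lay far apart, at -1.79 and -0.26. The brighter *Dnaja1* probe differed by 0.23 (standard error 0.262). The difference was 0.79 for the dimmer probe of *Dnaja4* (standard error 0.293), 0.66 for *Hspb2* (standard error 0.297), 0.66 for *Hspb6* (standard error 0.353) and 0.65 for *Dnaja3* (standard error 0.327), and for each of these 4 probes both AFS-treated mice were above all 3 untreated mice. The brighter *Dnaja4* probe differed by 0.50 (standard error 0.552), with overlapping mice. *Hsp90ab1* differed by 0.28 (standard error 0.278), *Hspa8* by 0.41 (standard error 0.255) in its called probe, and *Hsp90b1* by -0.15 (standard error 0.348). The untreated mice enter both this comparison and that of *Smn1*ΔSkm with Wt, so an opposite sign in the 2 comparisons is no independent sign of a return.

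Between AFS-treated *Smn1*ΔSkm and Wt myofibers limma called 3 of 61 member probes, 4.92% beside 7.34% of all probes. All 3 were higher (beside 2.99% of all probes higher and 4.35% lower), and they were *Dnaja4*, *Dnajb4* and *Hspa9*, whose values are given above. Without either Wt mouse or without AFS-treated mouse 1 limma called 0 member probes, 1 when AFS-treated mouse 2 or *Smn1*ΔSkm mouse 2 or 3 was left out, and 15 when *Smn1*ΔSkm mouse 1 was. With arrays centred on the probes detected everywhere, with quantile normalization and with the value table of the authors limma also called these 3 probes. The authors' table gave 5 calls in all, 3 higher and 2 lower, as did leaving out Wt myofiber 8, and the 15 without *Smn1*ΔSkm mouse 1 were 7 higher and 8 lower. Of the 7 probes called lower in untreated mice 0 were called here. Their differences from Wt in AFS-treated mice were -1.87 for *Hspa4* (limma, adjusted p = 0.0560), -1.99 for *Dnaja2* (0.0707), -1.29 for *Dnaja3* (0.0623), -0.80 for *Hsp90ab1* (0.127), -0.67 for *Bag2* (0.221), -0.48 for *Hspa8* (0.284) and -0.38 for *Hspb2* (0.467). That a probe passed in 1 comparison and missed in the other does not show that treated and untreated mice differ, and the comparison between them called none. With the brightest probe of each gene 2 of 42 genes were called (4.76%, beside 7.81% of all genes), and the mice did not overlap for 40 member probes (65.6%, beside 68% of all probes). The member median was 0.08, beside -0.06 over all probes.

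Among the members, myofibers of 1 mouse differed most in *Hspa1a* and *Dnajb1*. The standard deviation among myofibers of the same mouse and scan day was 1.57 for *Hspa1a*, higher than for 99.9% of the tested probes, 1.07 for *Dnajb1* (99%), 1.01 for *Hspb7* (98.6%) and 0.77 for *Dnajb5* (94.8%), while *Hsp90aa1*, which is heat-inducible too, had 0.52 (73%). The median over the members was 0.42, the same as over all probes (0.42). *Hspa1a* ranged from 2.21 to 4.31 among the 8 Wt myofibers (median 2.44), from -1.41 to 3.61 among the 12 *Smn1*ΔSkm myofibers (median 2.31) and from -0.60 to 5.51 among the 7 AFS-treated myofibers (median 2.46). The medians lay close together while the extremes did not. *Dnajb1* ranged from 3.11 to 4.84 in Wt (median 4.04), from -0.38 to 4.32 in *Smn1*ΔSkm (median 1.77) and from 0.44 to 6.31 in AFS-treated myofibers (median 2.86). Whether the spread itself differed between the groups was not tested.

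**Figure D4:**
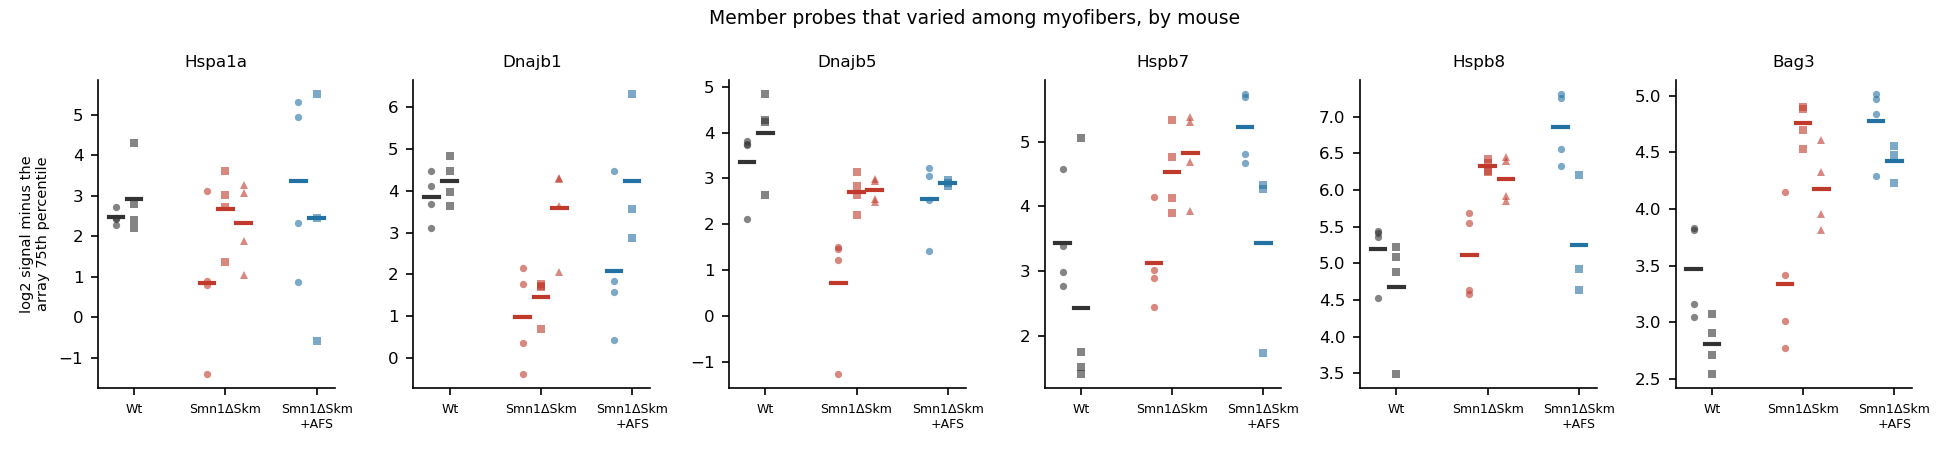
Log2 signal minus the array's 75th percentile (y axis) in each myofiber of Wt, untreated and AFS-treated *Smn1*ΔSkm mice for 5 members that respond to stress or vary widely, and for *Bag3*. Symbols mark the mouse, bars its mean. *Hspa1a* spans -1.41 to 5.51 over the series, and in every panel the first untreated *Smn1*ΔSkm mouse has the lowest mean of its group.

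Other genes of protein folding were read from lists with 1 probe for each gene, and their counts stand beside 14.1% of all probes called lower and 7.34% called higher in *Smn1*ΔSkm than in Wt, where 44.4% of all probes had a positive difference. Of the heat shock factors and their binding protein, 3 of 4 tested genes were called lower in *Smn1*ΔSkm: *Hsf1*, the master factor of the heat shock response, by -1.30 (standard error 0.340, limma, adjusted p = 0.0319), *Hsf2* by -1.58 (standard error 0.369, limma, adjusted p = 0.0234) and *Hsbp1*, which restrains *Hsf1*, by -1.57 (standard error 0.313, limma, adjusted p = 0.0156). *Hsf4* differed by 0.53 and was not called. The median of the list was -1.44.

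Of 20 tested co-chaperones of HSP90 6 were lower in *Smn1*ΔSkm, 0 were higher and 18 had a negative difference, with a median of -0.71. The called genes included *Fkbp5*, a prolyl isomerase of steroid receptor complexes (-2.02, limma, adjusted p = 0.0143), *Ptges3*, the p23 protein that closes the HSP90 cycle (-1.78, limma, adjusted p = 0.00902), *Pih1d1* (-1.45, limma, adjusted p = 0.0317), the phosphatase *Ppp5c* (-1.23, limma, adjusted p = 0.0247) and *Rpap3* (-1.21, limma, adjusted p = 0.0228). *Ptges3*, *Fkbp5* and *Rpap3* were called lower in AFS-treated mice too. *Unc45b*, the muscle chaperone of myosin, differed by -1.33 and did not pass (limma, adjusted p = 0.136).

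All 9 tested mitochondrial chaperones and proteases had a negative difference, with a median of -0.85, and 3 were called: *Trap1*, the HSP90 of mitochondria (-1.83, limma, adjusted p = 0.00872), and the membrane proteases *Spg7* (-1.91, limma, adjusted p = 0.00930) and *Yme1l1* (-2.32, limma, adjusted p = 0.00730). In AFS-treated mice against untreated mice all 9 were higher, with a median of 0.67 and 0 called. Over all probes 57.7% were higher in that comparison, with a median of 0.06. The untreated mice enter both comparisons, so the opposite sign is no independent sign of a return. Of 24 DNAJC genes 4 were lower (*Dnajc17*, *Dnajc30*, *Dnajc25* and *Dnajc15*) and 1 was higher, *Dnajc10*, a disulfide reductase of the endoplasmic reticulum (2.17, limma, adjusted p = 0.00698). Of the HSP70 co-chaperones outside the rule 1 of 6 was lower, *Stub1*, the ubiquitin ligase CHIP (-1.11, limma, adjusted p = 0.0434). Of 14 genes of the TRiC chaperonin and prefoldin 1 was lower, *Pfdn1*, and 1 was higher, *Cct6b*. Of 8 genes of endoplasmic reticulum folding 0 were called, and *Cryab*, the small heat shock protein most known in muscle, differed by 0.02.

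**Figure D5:**
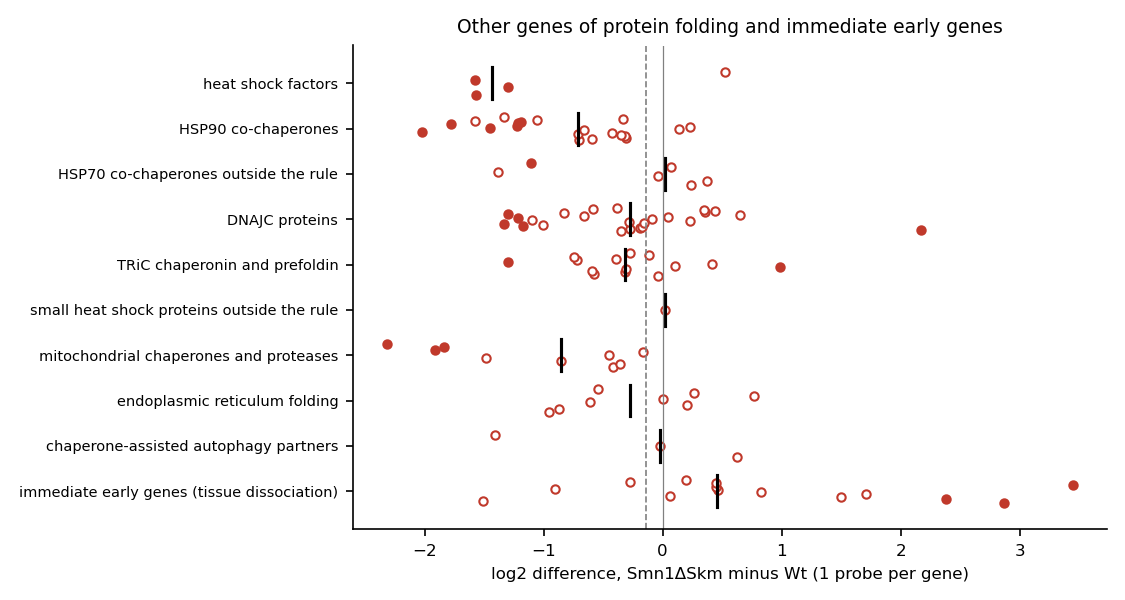
Log2 difference between *Smn1*ΔSkm and Wt (x axis) of the genes of each list (rows), 1 probe per gene, with filled points for called genes and black bars for list medians. The dashed line is the median over all probes, -0.14. The medians of heat shock factors (-1.44), HSP90 co-chaperones (-0.71) and mitochondrial chaperones and proteases (-0.85) lie left of it, and that of immediate early genes (0.46) lies right of it.

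Immediate early genes, which muscle digestion is known to switch on, were read beside these results. In *Smn1*ΔSkm 3 of 14 were higher than in Wt, beside 7.34% of all probes, and 0 lower, *Myc* by 3.45 (limma, adjusted p = 0.0290), *Atf3* by 2.87 (limma, adjusted p = 0.00990) and *Egr1* by 2.39 (limma, adjusted p = 0.0188), and the list median was 0.46. In AFS-treated mice 2 of 14 were higher than in Wt, beside 2.99% of all probes, *Atf3* and *Egr1*, with a list median of 1.54. The summed linear signal of the list was 67.7 to 204.9 in Wt myofibers, 52.5 to 320.4 in *Smn1*ΔSkm and 187.3 to 530.5 in AFS-treated myofibers. Of the leukocyte and macrophage markers 2 of 4 tested were higher in *Smn1*ΔSkm than in Wt, *Cd68* and *Ptprc*, while the summed signal of that list was 197.7 to 314 in Wt and 187.6 to 259.9 in *Smn1*ΔSkm. Of the tested markers of satellite cells (1), fibroblasts (2), endothelium (2), red blood cells (1) and smooth muscle (2) 0 were called, and none of Schwann cells or adipocytes could be tested. Of the 9 tested myofiber markers *Ckm*, *Mylpf* and *Actn3* were lower and *Myh1* was higher in *Smn1*ΔSkm. The part of dissociation, of other cells or of fiber type in the chaperone values was not tested.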

How the data were processed

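RNA of single myofibers, amplified in 18 cycles, was hybridised in 1 colour to Agilent mouse arrays (probe coordinates mm9). Per the file headers, the deposited scanner intensity is the processed signal of Agilent Feature Extraction 10.7.3.1 (version from the submitters' processing notes), background-subtracted and detrended on each array, with no scaling from array to array. A second deposited table, used as an alternative, gives the authors' linear intensities, nearly alike in distribution over arrays and empty where a probe was not well above background.

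Here values were log2 of the processed signal minus the 75th percentile of the array, left out where a spot was not found, not well above background or an outlier, and averaged over spots of a probe. Probes with values on at least 75% of 27 arrays were kept. Myofibers were averaged by mouse (2 Wt, 3 *Smn1*ΔSkm, 2 AFS-treated) and fitted in 1 model with limma 3.58.1 in R 4.3.3, with Benjamini-Hochberg adjustment over all 22154 probes and a threshold of 0.05. The fit was tested on simulated data. SAM, named in the study's methods, was not installed and was not run. The number of mice limits the precision, and no member spot was saturated.

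The members, gene lists and tests were chosen with earlier results of these data known. Named were every member probe called (at most 15 per comparison by size) and the brightest tested probe of a fixed set of chaperones, with other probes of these genes as a range, and of other lists called genes, at most 5 each. *Hspa2*, *Hspa14*, a further *Hspa4* probe, the second *Dnaja1* probe, *Hspb9*, *Hspb11*, *Bag1*, *Bag5*, *Hsf4*, *Unc45b* and *Cryab* were named after their values were seen. Alternatives covered the scaling, background, filter, value table, replicate unit, blocks, probe choice and left-out mice. Sequences were read from the scanner files and from RefSeq promoters (GRCm38.p6), which matched 43 of the 50 genes.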

Additional observations from a re-analysis of the deposited data

Results flagged for a closer look

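In 7 of 58 sets of 7 or 8 myofibers examined, 1 myofiber lay far from the rest of its group by its gap over the group's range. For independent values about 1 in 20 sets would pass the limit used. Each set pools myofibers of 2 mice and the sets share arrays, so that rate need not hold here. The values below are log2 signals minus the array's 75th percentile, with no value left out. Among Wt myofibers, myofiber 7 (mouse 2) had *Hspa1a* at 4.31 while the others lay between 2.21 and 2.80. Wt myofiber 8 (mouse 2) was low in both *Hspb8*, at 3.49 with the others between 4.53 and 5.44, and *Hsph1*, at 1.86 with the others between 2.81 and 3.66. Among AFS-treated myofibers, myofiber 1 (mouse 1) had *Dnajb4* at 4.80 with the others between 3.35 and 3.91. AFS-treated myofiber 3 (mouse 1) was low in *Hspb2*, at 3.38 beside 4.22 to 4.71, and in *Dnajb5*, at 1.42 beside 2.52 to 3.23. AFS-treated myofiber 6 (mouse 2) had *Hspb7* at 1.74 beside 4.26 to 5.73. The array of Wt myofiber 8 had values for 34001 probes, beside 23864 to 27318 on the other Wt arrays, and the highest log2 75th percentile of them, 7.30, and the part of this in its values was not tested. No cause of the other values was tested.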

How the results depend on the processing

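No called member changed sign under any alternative. The count of member probes called between *Smn1*ΔSkm and Wt (9) was 31 with myofibers as replicates, 19 with the mouse as a random block, 5 with the slide as a random block, 5 with 1 probe per gene, 14 without *Smn1*ΔSkm myofibers 1 to 3 and 15 without Wt myofiber 8 (an alternative chosen after seeing the data), and ranged from 0 to 23 when 1 mouse was left out. Between AFS-treated *Smn1*ΔSkm and Wt (3) it was 5 with the measured signal kept on every array, 5 with the authors' value table, 23 with myofibers as replicates, 12 with the mouse and 7 with the slide as a random block, 7 without those 3 myofibers, 5 without Wt myofiber 8, and 0 to 15 with 1 mouse left out. Between AFS-treated and untreated mice it was 0 under every alternative, although 520 probes of the whole array were called with the slide as a fixed block. The cause of these changes was not tested.

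The member median between *Smn1*ΔSkm and Wt (-0.07) was 0.089 with quantile normalization, 0.047 with normexp, 0.14 with arrays centred on probes measured on all of them, 0.051 with the authors' value table, -0.22 without *Smn1*ΔSkm myofibers 1 to 3, -0.17 without Wt myofiber 8, and -0.25 to 0.0052 with 1 mouse left out. Between AFS-treated and untreated mice (0.22) it was, in the order of the first 4 settings, 0.12, 0.081, 0.13 and 0.093, then 0.38 with the slide as a random and 0.44 as a fixed block, 0.33 within scan day 2, 0.34 without those 3 myofibers, and 0.20 to 0.33 with 1 mouse left out. Between AFS-treated mice and Wt (0.08) it was 0.18, 0.17 and 0.20 in the first 3 settings, 0.16 with the measured signal kept, -0.044 with no filter, 0.18 with probes measured on every array, and -0.045 to 0.19 with 1 mouse left out.

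Mice of different groups share a number in the labels but are different animals. With the mouse number as a replicate block 6, 0 and 1 member probes were called in the 3 comparisons, and deviations of same-numbered mice correlated between -0.05 and 0.30, so the mice were not treated as paired. Probes near background have no bound on a fold here, and 11 member probes had values on too few arrays to be tested. Nearness to background was not the reason for all of them. The *Dnajb12* probe was above background on 7 Wt, 9 *Smn1*ΔSkm and 5 AFS-treated arrays, with values on 7, 7 and 3. The untested *Hspb11* probe was above background on 8, 10 and 7, with values on 7, 8 and 3.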
